A study of Mus musculus with 16 samples.

Results

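The keratin gene family was described in cultured mouse tracheal epithelium, where keratins form the intermediate filaments of every epithelial cell. Members were the protein-coding genes whose symbol is Krt followed by a number and, in some, a letter. By that rule 53 of the 49315 gene identifiers in the count table were keratins. Of these, 27 had 10 or more counts in at least 2 of the 16 libraries, and all 27 passed the low-count filter of the test. The other 26 are listed with their low counts after the levels of the family.

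Keratin filaments are obligate heteropolymers of a type I (acidic) and a type II (basic) chain, so the chains of a cell are made in pairs. In the airway, the basal cells that anchor the epithelium and renew it are known for KRT5 with KRT14 or KRT15, the luminal secretory and ciliated cells for the simple pair KRT8 and KRT18 together with KRT7 and KRT19, and the stratified patches called hillocks for KRT4 and KRT13. KRT6A, KRT16 and KRT17 are known as keratins of wounded and hyperproliferating epithelium. The type II genes lie in a single cluster on mouse chromosome 15 and the type I genes in a cluster on chromosome 11, except Krt18, which lies beside Krt8 on chromosome 15. Of the 53 members, 28 were type I and 25 type II.

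Murine tracheal epithelial cell cultures (MTECs) are primary cells from pooled mouse tracheas that are grown on inserts and differentiated at an air-liquid interface. The cultures came from male and female mice labelled WT (wild-type) or KO (knockout of Lman1, which encodes a cargo receptor between the endoplasmic reticulum and the Golgi), bred as littermates on a C57BL/6J background. They were left untreated (naive) or received house dust mite extract (HDM) at 20 µg/ml overnight. Each of the 8 groups, male or female, WT or KO and naive or HDM, had 2 libraries that the labels call biological replicates. The labels do not say whether the pair came from separate pools of animals, so the p-values measure the spread between these cultures.

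The 16 libraries held 21860698 to 43442188 counts. Lman1, the targeted gene, was at 101 to 144 CPM (counts per 1000000 counts of a library, scaled by the TMM method) in the 8 WT libraries and at 12.8 to 78.1 CPM in the 8 libraries labelled KO. In 5 of those 8 it exceeded 20% of the WT mean. With HDM the labelled KO libraries were at 65.0 and 66.0 CPM (male) and 66.6 and 78.1 CPM (female). The naive labelled KO libraries were at 14.2 and 63.4 CPM (male) and 12.8 and 12.8 CPM (female). Which part of the gene the allele removes is not given in the sources used here. The libraries are therefore called labelled KO, and every comparison that involves the genotype rests on that label. Basal, secretory and ciliated markers were detected in all groups. A list of 9 fibroblast markers also had counts, and its sum was uneven between replicates in several groups. In the female WT cultures the second replicate had sums of 547.3 CPM (naive) and 600.6 CPM (HDM) against 27.5 and 50.1 CPM in the first. The male WT pairs were at 4.242 and 158.5 CPM (naive) and 3.087 and 40.07 CPM (HDM). The male labelled KO pairs were at 5.033 and 96.98 CPM (naive) and 11.05 and 69.4 CPM (HDM). The female labelled KO pairs were closer, at 96.08 and 110.2 CPM (naive) and 66.41 and 70.01 CPM (HDM).

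Divided by exon length, Krt5 had the highest mean level over the 16 libraries, 1690 CPM per kb, and ranged from 286.1 to 2671. Krt19 followed with a mean level of 1620 CPM per kb, and then the basal type I keratins Krt15 with 1384, Krt14 with 1068 and Krt17 with 860.6. The simple pair came next, with mean levels of 736.1 CPM per kb for Krt8 and 613.6 for Krt18, which lie 23698 bp apart. Krt4 (316.9 CPM per kb), Krt7 (221.8), Krt6a (168.1), Krt23 (47.34) and Krt13 (33.95) completed the 12 highest. These 12 held 99.68% to 99.84% of the summed keratin level per kb in each library. Below them stood Krt16 at a mean of 7.148 CPM per kb, Krt10 at 3.256, Krt80 at 2.565 and Krt6b at 2.443, and the remaining 11 described members, from Krt75 down to Krt78, had means under 1 CPM per kb. Among the 26 members that were not described the highest count in any library was 13, in Krt76, a palate keratin, and Krt26, Krt35 and Krt81 had no count in any library. These 26 include every inner root sheath keratin of the family and most hair keratins.

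**Figure D1:**
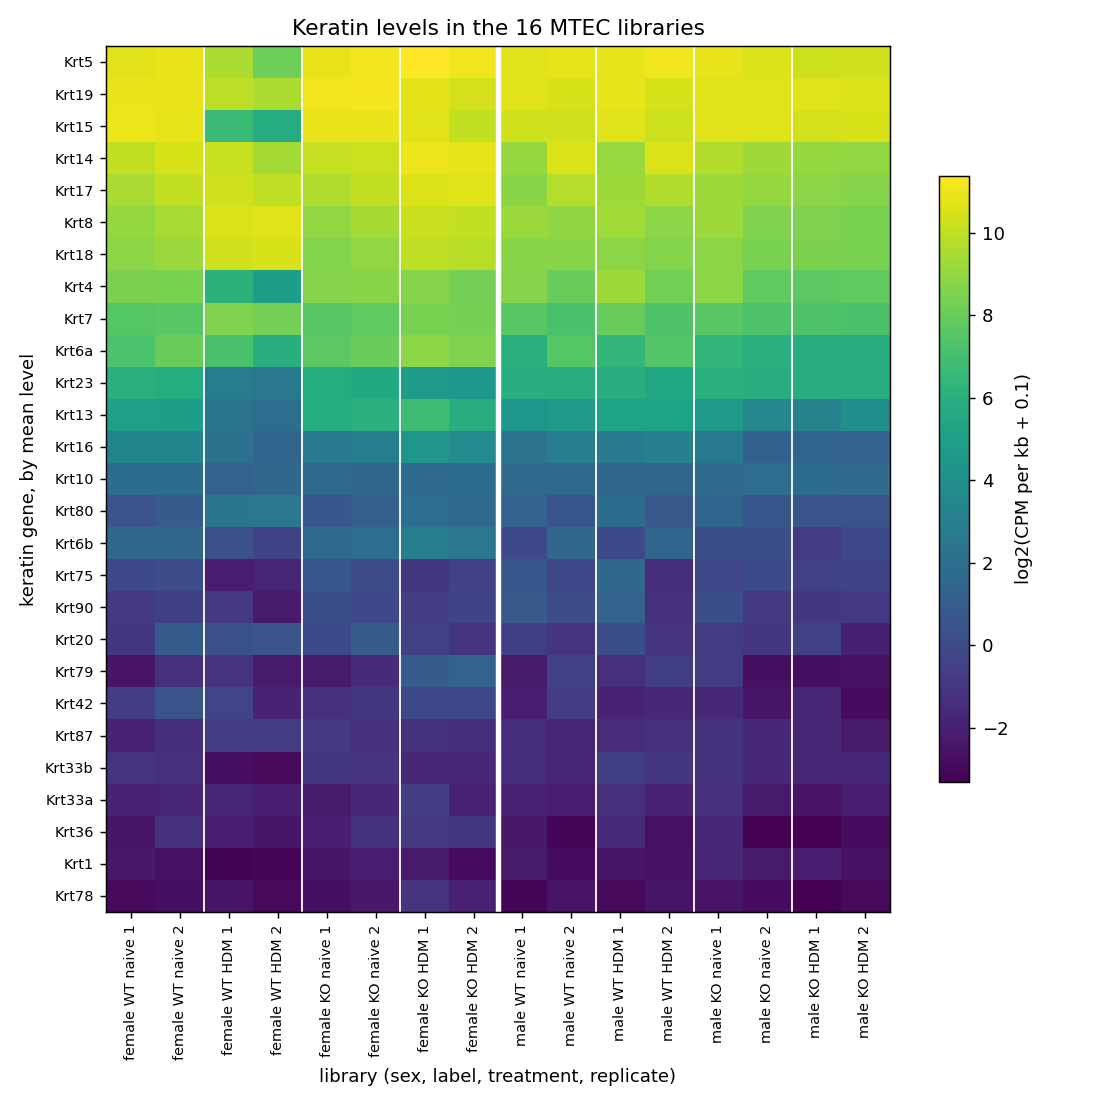
Level of the 27 described keratins (rows, by mean level) in the 16 libraries (columns, white lines between groups, thick line between sexes), as log2 of CPM per kb plus 0.1. Krt15, Krt4, Krt13, Krt23 and Krt33b are darkest in the 2 female WT HDM libraries, where Krt8 and Krt18 are brightest.

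The sequence that some members share limits how their reads could be assigned. Of the 50-base windows along the transcripts, 50.1% in Krt6b and 45.7% in Krt6a occur in another gene as well, chiefly in each other, and 37.6% in Krt16, 36.9% in Krt87, 26.9% in Krt8 (a Krt8 pseudogene), 24.2% in Krt33b, 17.8% in Krt33a and 13.9% in Krt14. The values of these genes, Krt6b and Krt6a first, are uncertain to that extent. Krt5, Krt6a, Krt6b, Krt7, Krt8, Krt10, Krt75, Krt80 and Krt90 overlap another annotated gene on the opposite strand, and strandedness is not given in the sources used here, so reads of the overlapping genes cannot be told apart.

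The first question was which keratins changed with HDM in each of the 4 kinds of culture. In female WT cultures 16 of 27 keratins passed edgeR's quasi-likelihood test at an adjusted p under 0.05, 5 of them higher and 11 lower with HDM. The background was wide, since 43.1% of the 15993 genes tested passed in that comparison, 20.6% higher and 22.4% lower. The median log2 fold change was -0.98 over the 27 keratins and -0.02 over all genes. In female cultures labelled KO 4 of 27 keratins passed, 3 higher and 1 lower, against 10.4% of all genes (4.63% higher and 5.77% lower), and the keratin median was 0.70. That count fell to 2, Krt18 and Krt23, when any of its 4 libraries was left out, and was 8 with DESeq2, 17 with no low-count filter and 15 when only the compared libraries were fitted. Those last 3 settings called 13.2%, 9.24% and 18.7% of all genes. In male WT and male labelled KO cultures 0 of 27 passed, as did 0% of all genes in both. At an unadjusted p under 0.05 there were 1 (Krt33b, log2 fold change 1.05 ± 0.35 SE) and 0 keratins, and DESeq2 called 0 and 0. With no low-count filter edgeR called 2 keratins in male WT cultures (Krt4 and Krt13, both higher), against 0.507% of all genes. It called 9 in male labelled KO cultures (all lower), against 2.4%.

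**Figure D2:**
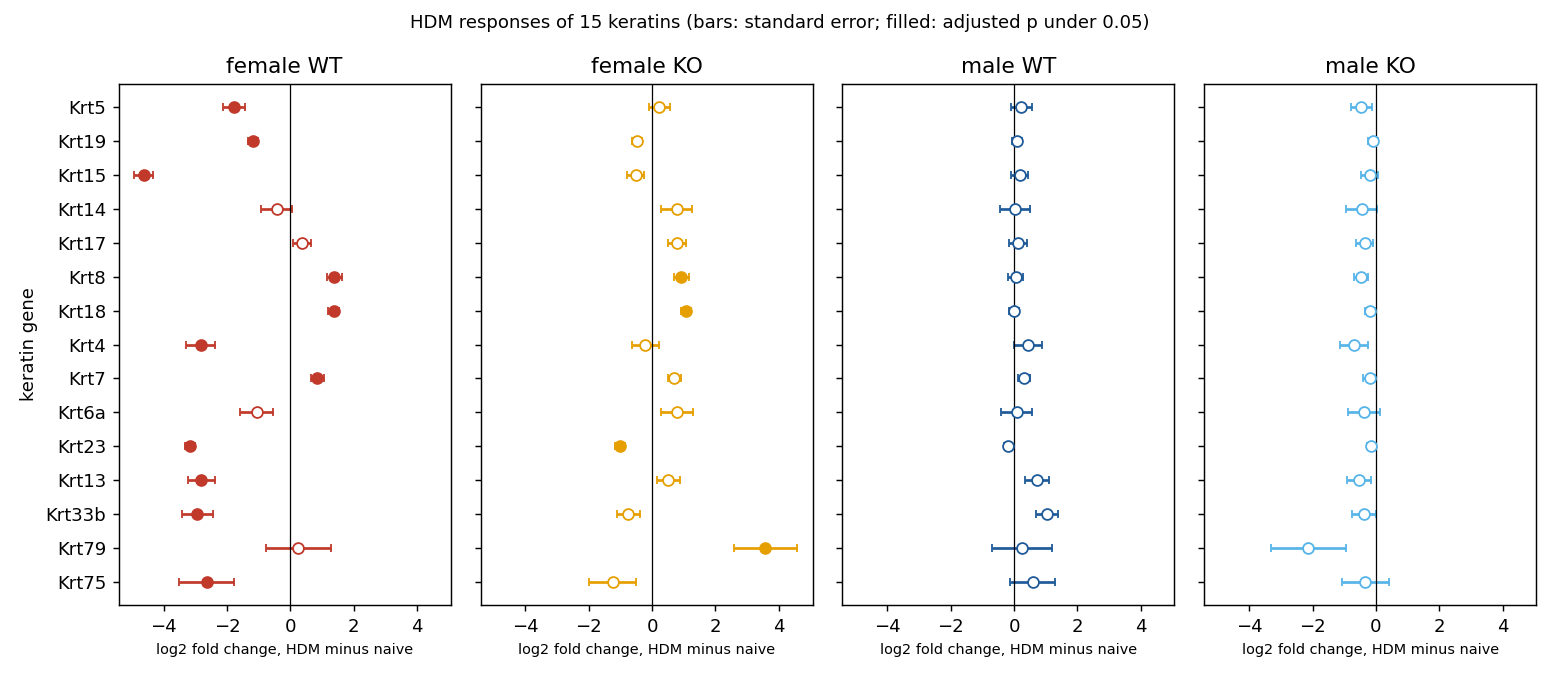
Log2 fold change (HDM minus naive) of the 15 keratins given library by library, with standard errors as bars and filled points for an adjusted p under 0.05, in the 4 kinds of culture. In female WT cultures 11 of these points are filled, from -4.63 for Krt15 to 1.39 for Krt8, and no point is filled in the male cultures.

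Because Krt5, Krt13 and Krt23 fell and Krt7, Krt8 and Krt18 rose in female WT cultures, these 6 genes are compared. The 120 bases before the RefSeq start of each are shown. The gene positions given below are from GENCODE, whose starts can differ. By those positions the Krt7 and Krt8 windows lie inside the gene, and the Krt18 and Krt23 windows overlap its start. The windows are therefore not all upstream of the GENCODE start. RefSeq (GRCm38.p6) gave windows for 16 of the 27 described keratins, and Krt33a, Krt15, Krt19, Krt16, Krt17, Krt80, Krt87, Krt6b, Krt6a, Krt1 and Krt4 were not among them. The sequences run 5′ to 3′ on the strand of the gene, and capitals mark ATAAAA within 40 to 15 bases of the start, the GC box GGGCGG and an NF-kB-type site (the last 2 on either strand).
Krt5 (chr15:101712906-101713025, minus strand): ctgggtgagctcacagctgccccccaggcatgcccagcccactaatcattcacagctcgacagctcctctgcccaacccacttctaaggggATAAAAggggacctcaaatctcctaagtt
Krt13 (chr11:100121567-100121686, minus strand): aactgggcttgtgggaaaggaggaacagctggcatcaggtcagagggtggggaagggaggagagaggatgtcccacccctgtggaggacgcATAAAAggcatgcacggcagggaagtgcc
Krt23 (chr11:99493121-99493240, minus strand): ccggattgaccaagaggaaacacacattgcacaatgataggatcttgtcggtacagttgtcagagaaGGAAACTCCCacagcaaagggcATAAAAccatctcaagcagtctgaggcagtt
Krt7 (chr15:101412283-101412402, plus strand): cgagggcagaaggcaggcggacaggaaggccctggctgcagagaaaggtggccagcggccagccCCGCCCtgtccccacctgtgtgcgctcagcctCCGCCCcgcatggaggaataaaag
Krt8 (chr15:102004343-102004462, minus strand): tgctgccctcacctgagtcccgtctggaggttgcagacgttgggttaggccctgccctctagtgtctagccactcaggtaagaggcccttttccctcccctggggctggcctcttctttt
Krt18 (chr15:102028096-102028215, plus strand): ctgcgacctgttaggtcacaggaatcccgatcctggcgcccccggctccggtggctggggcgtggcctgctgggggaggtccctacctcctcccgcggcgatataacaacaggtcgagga
ATAAAA starts 29 bases before the start site in Krt5 and Krt13 and 31 bases before it in Krt23, and no match is capitalized in Krt8 or Krt18. These letters, chosen after the sequences were read, occur at that distance in 6 of the 17 keratin windows (Krt5, Krt13, Krt20, Krt23, Krt75 and Krt78) and in 1.72% of the 32851 windows of the table. They overlap the TATA box TATAAA, which the 300-base windows of 5 of 16 keratin genes hold on either strand (Krt8, Krt10, Krt20, Krt42 and Krt33b) against 13.6% of all windows. Of the other letters searched on both strands of those windows, GGGCGG is in Krt7 and Krt75 (35.7% of all windows), the NF-kB-type site in Krt14, Krt23 and Krt79 (5.56%), the AP-1 site TGANTCA in Krt13 (7.81%), the KLF site CCACACCC in Krt33b (3.56%) and the GRHL site AACCNGTT in none (2.09%). A match describes the letters only.

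The basal keratins parted in female WT cultures. Krt15 (chr11:100131758-100135928), a type I keratin of quiescent basal cells, was at 3630 and 3200 CPM in the naive female WT libraries and at 179 and 95.9 CPM with HDM. The groups did not overlap, and the level was 24.8-fold lower, a log2 fold change of -4.63 ± 0.31 (SE, adjusted p = 9.52e-07). Krt5 (chr15:101707070-101712898), the type II keratin of basal cells, was at 3690 and 4320 CPM in naive and at 1700 and 628 CPM in HDM libraries of female WT cultures. It fell by 1.78 on the log2 scale (SE 0.34, adjusted p = 0.00152), and the replicate with the high fibroblast sum was the lower of the pair. Without both female WT libraries of that replicate number the fall in Krt5 and Krt15 still passed, with Krt5 at -1.12 on the log2 scale, while without the first HDM replicate Krt5 was at -2.68. In bulk RNA, fewer cells of a type and less RNA per cell cannot be told apart.

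Krt14 (chr11:100203162-100207548), the classical type I partner of KRT5, did not follow. Its female WT libraries were at 1820 and 2520 CPM naive and at 2020 and 1200 CPM with HDM, so the groups overlapped (log2 fold change -0.43 ± 0.48, adjusted p = 0.496). Krt17 (chr11:100256217-100261029), a type I keratin of basal and wounded epithelium, was at 1120 and 1600 CPM naive and 2000 and 1550 CPM with HDM, again overlapping (0.38 ± 0.28, adjusted p = 0.302). Of the 4 basal keratins, then, 2 fell and 2 did not pass in female WT cultures. In female cultures labelled KO none of the 4 passed. There Krt15 went from 3310 and 3570 CPM to 2970 and 1840 CPM (log2 fold change -0.52 ± 0.26, adjusted p = 0.245), and Krt5 from 4150 and 4910 CPM to 5870 and 4780 CPM (0.23 ± 0.33, adjusted p = 0.714). Krt14 was at 1880 and 2140 CPM naive and 3600 and 3250 CPM with HDM (0.77 ± 0.48, adjusted p = 0.354) and Krt17 at 1240 and 1590 CPM naive and 2440 and 2480 CPM with HDM (0.79 ± 0.28, adjusted p = 0.101). In both genes the HDM libraries lay above the naive ones without overlap, yet the difference missed the threshold.

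No basal keratin passed in either male response. Krt15 lay at 2240 and 2240 CPM (naive) and 2860 and 2200 CPM (HDM) in male WT and at 2950 and 2840 CPM (naive) and 2480 and 2550 CPM (HDM) in male labelled KO libraries. Krt5 lay at 3520 and 4020 CPM (naive) and 4080 and 4760 CPM (HDM) in male WT and at 4170 and 3330 CPM (naive) and 2700 and 2770 CPM (HDM) in male labelled KO libraries. The male WT replicates differed from each other in Krt14 and Krt6a. Krt14 was at 950 CPM in the first and 2640 CPM in the second naive library, and at 968 and 2720 CPM with HDM. Krt14 in male libraries labelled KO was at 1420 and 1080 CPM naive and at 941 and 896 CPM with HDM. Krt17 was at 671 and 1320 CPM (naive) and 922 and 1270 CPM (HDM) in male WT and at 935 and 831 CPM (naive) and 718 and 662 CPM (HDM) in male labelled KO libraries.

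The simple keratins were divided as well, with Krt8, Krt18, Krt7 and Krt80 higher and Krt19 and Krt23 lower in female WT cultures under HDM. Krt8 (chr15:101996698-102004482), the type II keratin of simple epithelium, was at 1060 and 1350 CPM naive and at 3080 and 3270 CPM with HDM. It rose 2.63-fold (log2 fold change 1.39 ± 0.23, adjusted p = 0.000585). Krt18 (chr15:102028180-102032027), its type I partner, was at 662 and 830 CPM naive and 1810 and 2050 CPM with HDM, and rose 2.59-fold (1.37 ± 0.17, adjusted p = 6.62e-05). The pair kept its proportion, since the ratio of Krt8 to Krt18 per kb was 1.178 and 1.196 in the naive and 1.247 and 1.171 in the HDM libraries, within the range of 0.979 to 1.391 over all 16. Krt7 (chr15:101411043-101430313), a type II keratin of ducts and glands, was at 1290 and 1390 CPM naive and 2610 and 2250 CPM with HDM (0.86 ± 0.21, adjusted p = 0.00578). Krt80, a type II keratin of cell edges in many epithelia, was at 8.10 to 11.2 CPM naive and 35.0 to 37.7 CPM with HDM (1.90 ± 0.37, adjusted p = 0.00178).

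Krt8 and Krt18 also rose in female cultures labelled KO. Krt8 went from 1010 and 1310 CPM to 2330 and 2080 CPM (log2 fold change 0.92 ± 0.23, adjusted p = 0.0256), and Krt18 from 569 and 740 CPM to 1470 and 1300 CPM (1.08 ± 0.16, adjusted p = 0.00252). Krt7 went from 1310 and 1580 CPM to 2390 and 2320 CPM, and did not pass (0.70 ± 0.21, adjusted p = 0.0506). All 3 genes were higher in both HDM libraries than in either naive library. The call for Krt8 was lost in 4 of 10 alternatives, those that left out a library, and that for Krt18 in none. In male cultures, Krt8 was at 1120 and 960 CPM (naive) and 1250 and 907 CPM (HDM) in WT and at 1200 and 734 CPM (naive) and 720 and 672 CPM (HDM) in labelled KO libraries. Krt18 was at 622 and 616 CPM (naive) and 662 and 588 CPM (HDM) in male WT and at 664 and 500 CPM (naive) and 520 and 503 CPM (HDM) in male labelled KO libraries. Krt7 was at 1310 and 1010 CPM (naive) and 1760 and 1120 CPM (HDM) in male WT and at 1400 and 1110 CPM (naive) and 1160 and 1020 CPM (HDM) in male labelled KO libraries. No male response of these 3 genes passed.

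Krt19 (chr11:100140810-100148665), a type I keratin without a fixed partner that is known from both basal and luminal cells, fell in female WT cultures from 3690 and 3530 CPM to 1810 and 1400 CPM (log2 fold change -1.17 ± 0.16, adjusted p = 0.000149). In female labelled KO libraries it was at 3910 and 4230 CPM naive and 3210 and 2600 CPM with HDM (-0.49 ± 0.16, adjusted p = 0.0716). Krt23 (chr11:99477974-99493137), a type I keratin of simple epithelium, had the smallest p of the keratins in the female WT response. It fell from 99.8 and 86.2 CPM to 11.4 and 9.23 CPM in female WT cultures, 8.96-fold (-3.16 ± 0.16, adjusted p = 2.19e-07). Krt23 fell in female labelled KO cultures too, from 85.4 and 75.7 CPM to 44.5 and 35.0 CPM (-1.02 ± 0.15, adjusted p = 0.00203). It was the only keratin whose fall passed edgeR's test in both female comparisons, which share no library. With DESeq2 Krt19 passed in both too. Male libraries held Krt19 at 2680 to 3420 CPM and Krt23 at 71.6 to 104 CPM in all 8.

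**Figure D3:**
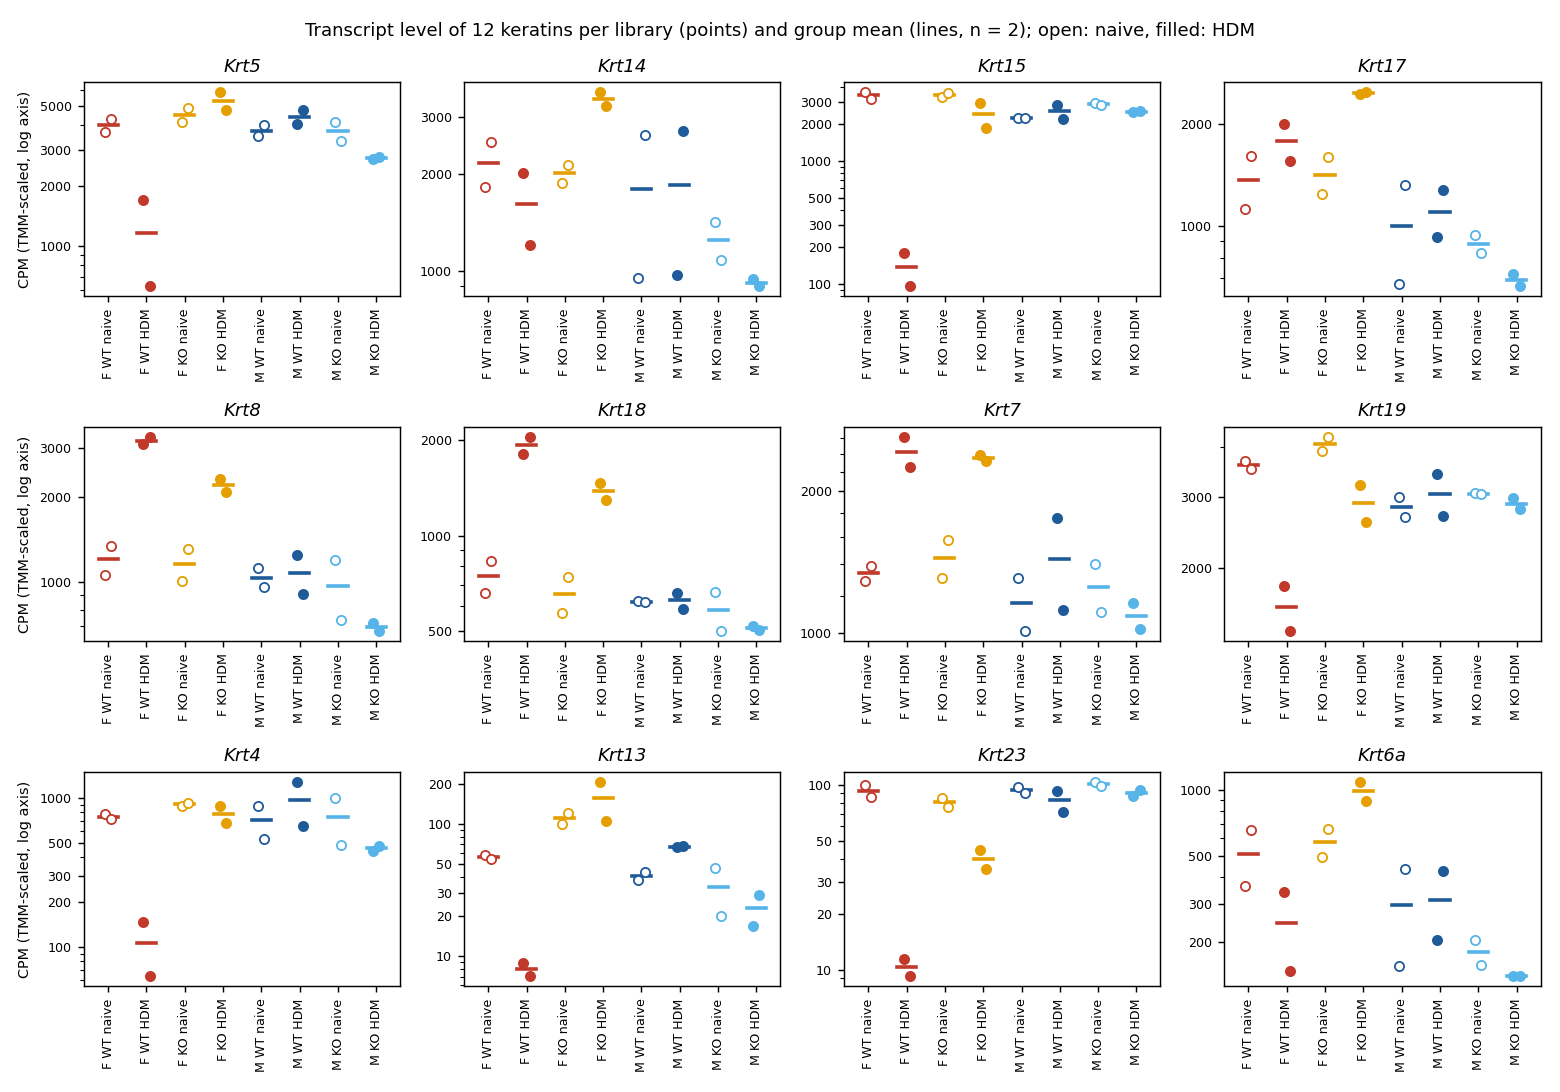
TMM-scaled CPM (log axis) of 12 keratins in each library (points, open for naive and filled for HDM) with the group mean of 2 libraries as a line, by sex (F, M), label and treatment. The female WT HDM libraries lie lowest of all groups for Krt5, Krt15, Krt19, Krt4, Krt13 and Krt23 and highest for Krt8 and Krt18, with Krt15 at 179 and 95.9 CPM.

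The mucosal pair fell together in female WT cultures. Krt4 (chr15:101918535-101924735), the type II keratin of stratified mucosa, was at 776 and 720 CPM naive and 148 and 63.7 CPM with HDM, 7.07-fold lower (log2 fold change -2.82 ± 0.46, adjusted p = 0.000523, and -3.56 without the first HDM replicate). Krt13 (chr11:100117327-100121566), its type I partner, was at 58.6 and 54.0 CPM naive and 8.91 and 7.06 CPM with HDM, 7.02-fold lower (-2.81 ± 0.42, adjusted p = 0.000306). The 2 genes lie on different chromosomes. In female cultures labelled KO neither passed. Krt4 was at 887 and 926 CPM naive and 888 and 676 CPM with HDM there, and Krt13 at 99.3 and 121 CPM naive and 208 and 105 CPM with HDM. The naive and HDM groups overlapped for both genes. Male WT libraries held Krt4 at 884 and 529 CPM naive and 1280 and 645 CPM with HDM, and Krt13 at 37.8 and 43.0 CPM naive and 66.8 and 67.5 CPM with HDM. Male labelled KO libraries held Krt4 at 996 and 482 CPM naive and 440 and 477 CPM with HDM, and Krt13 at 46.7 and 20.1 CPM naive and 17.0 and 28.9 CPM with HDM. No male response of the pair passed.

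Of Krt6a, Krt6b and Krt16, keratins of wounded or hyperproliferating epithelium, Krt6b and Krt16 fell in female WT cultures and Krt6a did not pass. Krt17, also known from such epithelium, was counted with the basal keratins above and did not pass in female WT cultures. Krt6a (chr15:101689910-101694307) was at 361 and 659 CPM naive and 342 and 147 CPM with HDM (log2 fold change -1.06 ± 0.51, adjusted p = 0.113). Krt6b, its near-identical neighbour, went from 6.39 and 6.29 CPM to 2.62 and 1.56 CPM (-1.59 ± 0.58, adjusted p = 0.0445), and Krt16, a type I partner of both, from 15.6 and 15.1 CPM to 7.20 and 4.17 CPM (-1.43 ± 0.41, adjusted p = 0.0151). The calls of Krt6b and Krt16 were lost in 5 and 3 of 11 alternatives. In female cultures labelled KO none of these 3 passed, nor did Krt75 or Krt42. Krt6a, Krt6b and Krt16 were higher in both HDM libraries than in the naive ones. Krt6a was at 492 and 663 CPM naive and 1090 and 895 CPM with HDM there (0.78 ± 0.50, adjusted p = 0.37), and Krt16 at 9.89 and 11.4 CPM naive and 31.4 and 21.1 CPM with HDM (1.30 ± 0.39, adjusted p = 0.058). Male libraries held Krt6a at 156 and 436 CPM (naive) and 204 and 424 CPM (HDM) in WT, and at 204 and 157 CPM (naive) and 140 and 140 CPM (HDM) in labelled KO cultures.

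Among the minor members, 3 more met the rule for library values, each at low counts. Krt75, a type II keratin of the hair follicle companion layer, was at 2.80 and 3.33 CPM naive and 0.375 and 0.616 CPM with HDM in female WT libraries (log2 fold change -2.64 ± 0.87, adjusted p = 0.0296), a call lost in 5 of 11 alternatives. Elsewhere Krt75 ranged from 0.927 to 9.96 CPM, both in male WT HDM libraries. Krt33b, a hair keratin, was at 0.581 and 0.495 CPM naive and 0.0832 and 0.0474 CPM with HDM in female WT libraries. Since the HDM libraries held 3 counts of it in all against 38 in the naive ones, the ratio of 7.94 has a 95% counting interval of 2.52 to 40.2 (fitted log2 fold change -2.93 ± 0.50, adjusted p = 0.000682). Krt79, a type II keratin of gland ducts, rose in female labelled KO cultures from 0.513 and 1.18 CPM to 8.76 and 11.4 CPM (3.58 ± 1.01, adjusted p = 0.0441), and this call was lost in 5 of 10 alternatives. In female WT libraries Krt79 was at 0.327 and 1.51 CPM naive and 1.75 and 0.521 CPM with HDM, and it was at 0.246 to 2.93 CPM in the male libraries. Krt10, a keratin of cornifying layers, fell slightly in female WT cultures (from 7.42 to 7.56 CPM to 5.16 to 6.20 CPM, -0.40 ± 0.13, adjusted p = 0.0287), and the hair keratin Krt87 rose (from 0.400 to 0.629 CPM to 1.17 to 1.23 CPM, 1.18 ± 0.38, adjusted p = 0.0251). These 2 calls were lost in 7 and 5 of 11 alternatives. The 7 remaining members, Krt1, Krt20, Krt33a, Krt36, Krt42, Krt78 and Krt90, did not pass in any of the 4 HDM responses.

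The make-up of the keratin pool shifted as well. Keratins took 1.864% and 2.081% of all counts in naive and 1.527% and 1.229% in HDM libraries of female WT cultures, against 1.945% and 2.225% naive and 2.651% and 2.288% with HDM in female labelled KO cultures. For these shares the simple group is Krt7, Krt8, Krt18 and Krt19, without Krt23 and Krt80. The basal group is Krt5, Krt14, Krt15 and Krt17, and the mucosal group Krt4 and Krt13. In the female WT HDM libraries the simple group made up 54.09% and 66.07% of the keratin level per kb, where every other library lay between 28.08% and 38.88%. The basal group made up 42.80% and 32.09% there and 53.12% to 65.37% in every other library. The mucosal group made up 0.9592% and 0.5354% against 3.197% to 7.367%. The ratio of type II to type I chains went from 0.4587 and 0.506 naive to 0.6124 and 0.6030 with HDM in female WT libraries. It went from 0.5058 and 0.5354 to 0.618 and 0.6198 in female labelled KO libraries. Over all 16 libraries it ranged from 0.4572 to 0.6646. Ratios of single keratins shifted as well, and of these Krt8 and Krt5 are both type II chains rather than partners. The ratio of Krt5 to Krt14 per kb went from 1.619 and 1.370 naive to 0.6752 and 0.4195 with HDM in female WT libraries and was 1.180 or more in every other library. The ratio of Krt5 to Krt15 went from 0.8176 and 1.086 to 7.633 and 5.274, with 2.096 the highest elsewhere, and that of Krt8 to Krt5 from 0.3234 and 0.3514 to 2.032 and 5.833, with 0.4877 the highest elsewhere. These ratios are descriptions and were not tested.

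**Figure D4:**
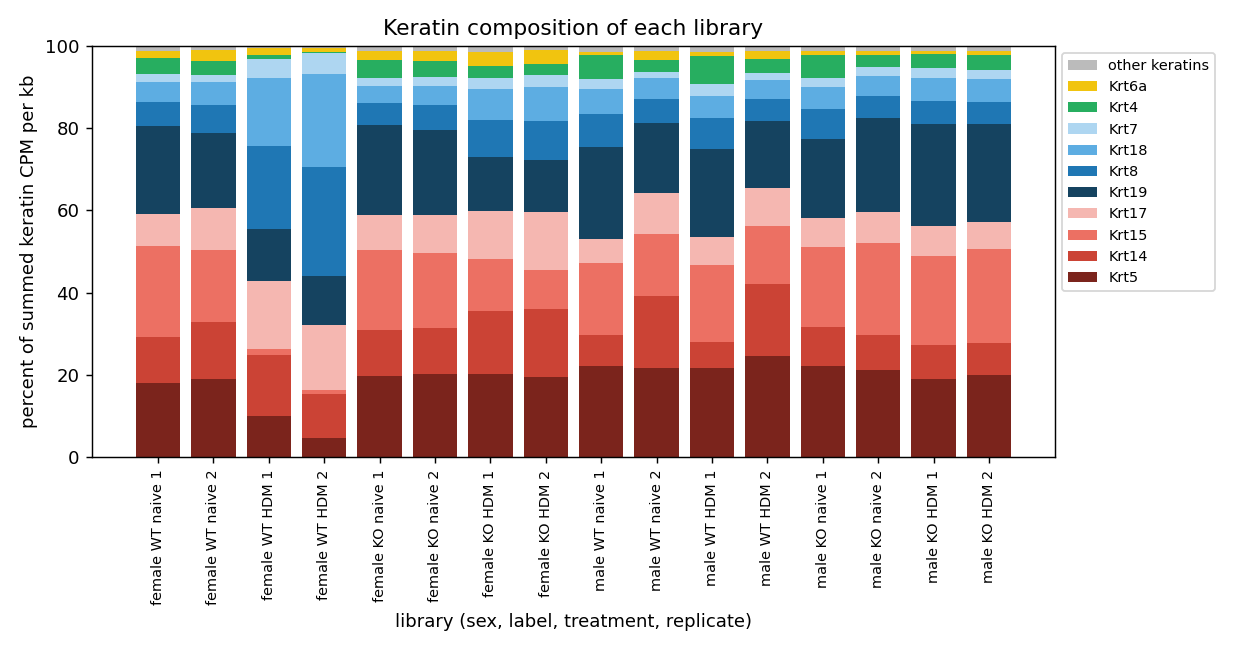
Share of each keratin in the summed keratin CPM per kb of each library (stacked bars to 100%), with basal keratins in reds, simple keratins in blues, Krt4 in green and Krt6a in yellow. The blue part makes up 54.09% and 66.07% in the 2 female WT HDM libraries, and Krt15 nearly vanishes from them.

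The next question was whether male and female cultures differed. Before HDM, 0 of 27 keratins passed in WT (0.1% of all genes) and 0 of 27 in labelled KO cultures (0.188%). At an unadjusted p under 0.05 there were 2 and 6 keratins, and DESeq2 called 0 and 1 (Krt13, lower in males). DESeq2 called 1.28% and 1.35% of all genes. With no low-count filter edgeR called 8 in each, 7 of them lower in males, against 2.19% and 2.92% of all genes. Krt13 in labelled KO naive libraries was at 46.7 and 20.1 CPM in males and 99.3 and 121 CPM in females (log2 difference -1.72 ± 0.38, adjusted p = 0.121).

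With HDM, 13 of 27 keratins differed between male and female WT cultures, 9 higher and 4 lower in males, against 41.6% of all genes, 21.3% higher and 20.3% lower. The 9 that were higher in males were Krt15 (log2 difference 4.20 ± 0.30), Krt75 (3.46 ± 0.87), Krt33b, Krt4 (3.18 ± 0.47), Krt13 (3.07 ± 0.42), Krt23 (2.99 ± 0.16), Krt90 (2.30 ± 0.83), Krt5 (1.92 ± 0.34) and Krt19 (0.93 ± 0.16). The 4 that were lower in males were Krt18 (-1.63 ± 0.17), Krt8 (-1.55 ± 0.23), Krt80 (-1.13 ± 0.36) and Krt7 (-0.76 ± 0.21). Krt33b rested on 3 counts in females against 49 in males (ratio 11.5, 95% counting interval 3.71 to 57.7). This comparison shares the female WT HDM libraries with the HDM response above, so the 2 sets of values are not separate evidence. The groups overlapped for Krt90, whose male WT HDM libraries were at 6.33 and 0.772 CPM. Without the first male WT HDM replicate neither Krt75 (0.92) nor Krt90 (0.11) passed and Krt80 was at -1.80, and without the first female WT HDM replicate Krt5 was at 2.82 and Krt4 at 3.92. Of 11 alternatives the call was lost in 5 for Krt80, in 4 each for Krt75 and Krt90 and in 3 for Krt7.

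In cultures labelled KO under HDM, 15 of 27 keratins differed between the sexes, 1 higher and 14 lower in males, against 25.3% of all genes, 12.9% higher and 12.4% lower. The median log2 difference of the 27 was -1.43 and that of all genes -0.00. The same HDM libraries enter the labelled KO responses above, so these values are not separate evidence. The wound keratins Krt6a, Krt6b and Krt16 were lower in males, and Krt75 did not pass (0.34 ± 0.76). Krt6b differed by -3.31 ± 0.60, Krt6a by -2.82 ± 0.54 (140 and 140 CPM in males, 1090 and 895 in females) and Krt16 by -2.78 ± 0.43, with adjusted p of 0.0024, 0.00312 and 0.000894. Krt17 differed by -1.83 ± 0.29 and Krt14 by -1.90 ± 0.50, so that basal keratins that did not pass in the HDM responses passed here, although the call for Krt14 was lost without any 1 of the 4 libraries. The simple keratins Krt8 (-1.66 ± 0.23), Krt18 (-1.43 ± 0.17), Krt80 (-1.47 ± 0.38) and Krt7 (-1.11 ± 0.21) and the mucosal Krt13 (-2.77 ± 0.39, and -2.18 without the first female labelled KO HDM replicate) were lower in males too. Krt23 was the 1 that was higher, at 87.7 and 94.4 CPM in males against 44.5 and 35.0 CPM in females (1.20 ± 0.15, adjusted p = 0.000259). Krt79 (-5.15 ± 1.16), Krt42 (-2.73 ± 0.88, on 10 and 2 counts in males against 36 and 39 in females), Krt78 and Krt36 made up the rest. Of 10 alternatives the call was lost in 5 for Krt36, in 4 for Krt42, in 3 for Krt80 and in 2 each for Krt79 and Krt78. Krt78 rested on 3 counts in males against 48 in females (ratio 17.3, 95% counting interval 5.59 to 87.0) and Krt36 on 2 against 37 (ratio 20.0, interval 5.17 to 172). Krt15 and Krt19 did not pass, with log2 differences of 0.06 ± 0.26 and -0.00 ± 0.16. Without the first male labelled KO HDM replicate the count was 9.

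The third question was the genotype label. In naive cultures 0 of 27 keratins passed in females and 0 of 27 in males, against 0% of all genes in both. At an unadjusted p under 0.05 there were 1 (Krt13, log2 difference 0.97 ± 0.37) and 0, and DESeq2 called 0 and 0. With no low-count filter edgeR called 1 (Krt13) and 2 (Krt14 and Krt6a), against 0.459% and 0.333% of all genes. With HDM, 12 of 27 differed between labelled KO and WT female cultures, 11 higher and 1 lower in labelled KO, against 29.2% of all genes, 14.9% higher and 14.3% lower. The median log2 difference was 1.79 over the keratins and 0.00 over all genes. The female WT HDM libraries also enter the female WT response and the WT HDM sex difference. These values are therefore not separate evidence. Krt13 (4.29 ± 0.44), Krt15 (4.13 ± 0.30), Krt4 (2.88 ± 0.46), Krt5 (2.19 ± 0.35), Krt23 (1.94 ± 0.16) and Krt19 (0.85 ± 0.16) were higher in labelled KO. So were the wound keratins Krt6b (2.84 ± 0.59), Krt16 (2.20 ± 0.42) and Krt6a (2.02 ± 0.52). Krt79 (3.13 ± 1.00) and Krt33b, the latter on 3 counts against 19 (ratio 5.42, 95% counting interval 1.60 to 28.6), were the other 2. Krt17, Krt75 and Krt42 did not pass. Krt18 was lower (-0.48 ± 0.16, adjusted p = 0.0446), a call lost in 7 of 11 alternatives, and that of Krt79 was lost in 5 and that of Krt6a in 3. The count was 21 with no low-count filter, 7 without the second female WT HDM replicate and 6 without both female WT libraries of that number, and those 6 were Krt13, Krt15, Krt19, Krt23, Krt4 and Krt5. The 21 calls with no low-count filter stood beside 17.5% of all genes. Without the first female WT HDM replicate Krt5 was at 3.09, Krt4 at 3.62 and Krt6a at 2.76.

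In male HDM cultures 0 of 27 keratins passed between labelled KO and WT, with 0% of all genes, while 11 had an unadjusted p under 0.05. DESeq2 called 2 (Krt13 and Krt16, lower in labelled KO), against 3.51% of all genes, and edgeR with no low-count filter 14, all lower, against 6.45%. The median log2 difference of the 27 was -0.99 and that of all genes -0.01. Krt13 was at 17.0 and 28.9 CPM in labelled KO and 66.8 and 67.5 CPM in WT male HDM libraries (-1.55 ± 0.38, adjusted p = 0.159), and Krt16 at 3.99 and 3.65 CPM against 9.73 and 13.1 CPM (-1.58 ± 0.42, adjusted p = 0.161). The groups did not overlap for either gene.

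The difference between HDM responses was tested directly. The response of female WT cultures differed from that of male WT cultures in 9 of 27 keratins, 2 higher and 7 lower, against 24.2% of all genes, 11.3% higher and 12.8% lower. Krt15 (log2 difference of responses -4.81 ± 0.39), Krt13 (-3.55 ± 0.56) and Krt4 (-3.26 ± 0.62) had lower responses in females. So did Krt23 (-2.97 ± 0.22), Krt5 (-2.01 ± 0.47), Krt19 (-1.27 ± 0.22) and Krt33b (fitted -3.99 ± 0.61, on 3 counts in the female WT HDM libraries). Krt18 (1.36 ± 0.23) and Krt8 (1.34 ± 0.32) had higher responses in females. None of the 9 passed in the male WT response itself. Krt5 was at -2.91 and Krt4 at -4.00 without the first female WT HDM replicate, and Krt5 at -1.35 without both female WT libraries of number 2. In labelled KO cultures 3 of 27 differed between the sexes, against 3.56% of all genes (1.79% higher and 1.77% lower), namely Krt8 (1.40 ± 0.32), Krt18 (1.27 ± 0.23) and Krt23 (-0.87 ± 0.20). That count was 0 without the first male labelled KO naive replicate, either male labelled KO HDM replicate, the first female labelled KO naive replicate or the second female labelled KO HDM replicate, and 1 without either of the other 2 female labelled KO libraries. It was 8 with DESeq2 (7.45% of all genes), 9 with only the compared libraries (5.14%) and 15 with no low-count filter (6.73%). Between the labels, the response of female cultures differed in 6 of 27, all higher in labelled KO, against 11.2% of all genes, 6.16% higher and 5.08% lower (10.3% in all with no low-count filter). These were Krt15 (4.11 ± 0.39), Krt13 (3.32 ± 0.56), Krt16 (2.73 ± 0.57), Krt4 (2.61 ± 0.62), Krt23 (2.14 ± 0.22) and Krt5 (2.01 ± 0.47), with Krt4 at 3.35 and Krt5 at 2.91 without the first female WT HDM replicate. The count was 3 (Krt13, Krt15 and Krt23) without the second female labelled KO naive replicate, 3 (Krt15, Krt23 and Krt5) without both female WT libraries of number 2, and 15 with no low-count filter.

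Genes that anchor keratin filaments were counted in the same way. Of 18 listed linkers, which are desmosomal proteins, plakins and keratin-binding proteins, 15 were tested, and in female WT cultures 0 rose and 5 fell with HDM. Among them were Fam83h, a protein that organizes keratin filaments (-0.66 ± 0.13), the plakophilin Pkp2 (-0.36 ± 0.08) and the filament-binding protein Tchp (-0.43 ± 0.11). The share of 5 in 15 stands beside 22.4% of all genes lower. In female labelled KO cultures 2 rose and 1 fell (4.63% and 5.77% of all genes), and in labelled KO HDM cultures 1 was higher and 10 lower in males than in females (12.9% and 12.4% of all genes). Of the 16 other intermediate filament genes, 11 were tested and 4 rose in female WT cultures, against 20.6% of all genes, namely the class VI filament genes Nes (2.59 ± 0.39) and Synm (1.84 ± 0.20), the mesenchymal filament Vim (1.85 ± 0.57) and the nuclear lamin Lmna (0.59 ± 0.15). Vim was at 17.8 and 53.0 CPM in the naive and at 67.6 and 190 CPM in the HDM libraries, in a pair of groups whose fibroblast sums also differed between replicates, and the part of stromal RNA in its rise was not tested.

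Of 18 regulators of keratin expression and keratinization, all tested, 1 rose and 11 fell in female WT cultures with HDM, against 20.6% of all genes higher and 22.4% lower. The smallest p belonged to Sox2, an airway progenitor factor (-1.33 ± 0.09), Elf3, an epithelial ETS factor (-1.89 ± 0.14), and Trp63, the master regulator of basal cells (-2.06 ± 0.20), which fell from a mean of 211 to 50.4 CPM. In female labelled KO cultures 0 rose and 2 fell (4.63% and 5.77% of all genes). Between labels in female HDM cultures 12 were higher and 0 lower in labelled KO (14.9% and 14.3% of all genes), and between sexes in WT HDM cultures 12 were higher and 0 lower in males (21.3% and 20.3% of all genes). Both of these comparisons share the female WT HDM libraries with the female WT response. No regulator passed in either male HDM response.

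Markers of the cell types that carry these keratins moved as follows, and their part in the keratin values was not tested. The counts stand beside 20.6% of all genes higher and 22.4% lower in the female WT response, and 4.63% and 5.77% in the female labelled KO response. Of 9 basal markers without keratins, 1 rose and 6 fell in female WT cultures with HDM, led by the water channel Aqp3 (-4.76 ± 0.20), the nerve growth factor receptor Ngfr (-3.17 ± 0.16) and Dapl1 (-3.84 ± 0.28). Their summed level was 2444 to 2567 CPM naive and 1706 to 2101 CPM with HDM, and 2612 to 2770 CPM naive and 2865 to 3011 CPM with HDM in female labelled KO cultures. All 10 secretory markers fell, led by the antimicrobial lectin Reg3g (-5.92 ± 0.34) and the secretoglobins Scgb3a1 (-5.94 ± 0.51) and Scgb3a2 (-6.00 ± 0.52), while 5 of 9 tested ciliated markers fell and Foxj1, the factor that drives ciliogenesis, did not pass (0.06 ± 0.34). Of 8 hillock markers 2 rose and 2 fell (median log2 fold change 0.12), with Ecm1 the clearest riser (1.58 ± 0.22). Their summed level was 7536 to 7793 CPM naive and 12150 to 13620 CPM with HDM in female WT cultures, where Krt4 and Krt13 fell. Of 16 squamous markers 9 were tested, and Sbsn (1.66 ± 0.37) and Ivl (from a mean of 4.94 to 14.2 CPM), a precursor of the cornified envelope, rose while the small proline-rich gene Sprr2a3 fell (-0.98 ± 0.19). In female labelled KO cultures 7 secretory markers fell, and 1 basal marker rose and 2 fell.

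Other cell types were listed for comparison, with the same shares of all genes beside their counts (20.6% higher and 22.4% lower). Of 9 fibroblast markers 3 rose in female WT cultures (Lum 4.60 ± 1.25, Dcn 3.39 ± 1.14 and Fap 2.33 ± 0.85), with the second replicate high in both naive and HDM libraries as given above. The summed level of 5 smooth muscle markers was 60.27 to 146 CPM naive and 284.1 to 463.4 CPM with HDM, almost all of it Acta2, and 0 of 4 tested passed. Of 5 tested immune markers 3 fell, led by Lyz2 (-1.55 ± 0.18). Without both female WT libraries of number 2, a choice made after the fibroblast sums were seen, 11 of 27 keratins passed in the female WT response, 4 higher and 7 lower, against 22.1% of all genes. No marker list had a member that passed in either male HDM response.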

How the data were processed

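RNA of 16 MTEC libraries, 2 in each of 8 groups, was sequenced after mRNA enrichment. The deposited table holds raw read counts per Ensembl gene, and the submitters' processing notes name Trimmomatic 0.36, STAR 2.5.2b, featureCounts (Subread 1.5.2), DESeq2 and the GRCm38 build. Their options, annotation release and strandedness are not given in the sources used here. Columns were matched to samples by name, and the column of each group without a number was taken as replicate 1. Symbols, lengths and positions came from the GENCODE annotation of GRCm38 (48970 of 49315 identifiers matched). Per-kb values divide by the union of exons. A pseudogene with a keratin symbol was left out.

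The counts were fitted in edgeR 4.0.16 (R 4.3.3) with TMM scaling, filterByExpr by group (15993 genes kept), 1 model of 8 group means and the quasi-likelihood test, with Benjamini-Hochberg adjustment over all genes kept and calls at an adjusted p under 0.05. There were 15 comparisons: 4 HDM responses, 4 sex differences, 4 label differences and 3 differences between responses. The common biological coefficient of variation was 0.142. Libraries held 21860698 to 43442188 counts, and ratios against a group with 3 or fewer counts in each of its libraries are given with exact 95% counting intervals, which cover counting error only. The code was tested on simulated counts.

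The keratins, the marker and pathway lists (basal, ciliated, secretory, hillock, squamous, fibroblast, smooth muscle, immune, endothelial, tuft, ionocyte, linkers, other intermediate filaments, regulators) and the tests were chosen with earlier results of these data known. 1 further marker list is not reported here. Library values are given for the 12 keratins highest per kb and for those called in an HDM response that moved by at least 2 on the log2 scale. Up to 3 members of each list, by smallest p in the female WT response, are named, and others are named beside them where a count was small. Foxj1, Acta2 and Vim's levels were added after their values were seen. Alternatives were DESeq2 1.42.0, upper-quartile scaling, library size only, no low-count filter, only the compared libraries, a replicate block, and leaving out libraries. Promoters are RefSeq windows on GRCm38.p6.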

Additional observations from a re-analysis of the deposited data

Results flagged for a closer look

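Each result here is a difference between HDM responses that passed edgeR's quasi-likelihood test of the difference itself (Benjamini-Hochberg adjusted p under 0.05), given as a log2 difference. Groups of 2 libraries are too small for a test of a single outlying library.

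Female WT minus male WT cultures differed by -4.81 for Krt15, -3.99 for Krt33b (on 3 counts in the female WT HDM libraries), -3.55 for Krt13, -3.26 for Krt4, -2.97 for Krt23, -2.01 for Krt5 and -1.27 for Krt19, and by 1.36 for Krt18 and 1.34 for Krt8. Krt15, Krt33b, Krt13, Krt4, Krt23, Krt19 and Krt18 kept the call in all 15 alternatives, and Krt5 and Krt8 each lost it in 1.

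Female minus male labelled KO cultures differed by 1.40 for Krt8, 1.27 for Krt18 and -0.87 for Krt23. These calls were lost in 8, 6 and 8 of 14 alternatives.

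Female labelled KO minus female WT cultures differed by 4.11 for Krt15, 3.32 for Krt13, 2.73 for Krt16, 2.61 for Krt4, 2.14 for Krt23 and 2.01 for Krt5. Krt15 and Krt23 kept the call in all 15 alternatives, Krt13 lost it in 1, Krt16 in 3, Krt5 in 6 and Krt4 in 7. Lman1, the targeted gene, differed by 2.67 in the same comparison, since it was at 12.8 and 12.8 CPM in naive and 66.6 and 78.1 CPM in HDM libraries labelled KO, while the female WT libraries stayed between 101 and 123 CPM. The female WT libraries enter both the first and the third of these comparisons, so their values are not separate evidence.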

How the results depend on the processing

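Over the 78 keratin calls of the 15 comparisons, 907 alternative values were computed, of which 775 kept the call, 132 lost it and 0 changed direction. The call was lost in 99 of 384 values with 1 library left out, where the lone sample of a group is assumed to vary like the other groups, and in 17 of 56 without both female WT libraries of number 2. Leaving out a library gave 11 to 13 calls for the HDM response of female WT, 2 to 2 for female labelled KO, 11 to 11 for male minus female WT HDM, 9 to 13 for male minus female labelled KO HDM, 7 to 10 for labelled KO minus WT in female HDM, 8 to 11, 0 to 4 and 3 to 8 for the differences between responses (female WT minus male WT, female minus male labelled KO, female labelled KO minus female WT), and 0 to 0 for the others.

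With no low-count filter, which tests 29397 genes, the calls are given with the share of all genes called. There were 17 for the response of female labelled KO (9.24%), 2 for male WT (0.507%) and 9 for male labelled KO (2.4%). The sex differences in naive WT and labelled KO had 8 and 8 (2.19% and 2.92%). The label differences had 1 and 2 in naive females and males (0.459% and 0.333%) and 21 and 14 with HDM (17.5% and 6.45%). The differences between responses, in the order above, had 16, 15 and 15 (15.2%, 6.73% and 10.3%). The cause was not tested. DESeq2 gave 8 for female labelled KO (13.2% of all genes) and 1 for naive labelled KO sex difference (1.35%). It gave 2 for the male HDM label difference (3.51%) and 8 for female minus male labelled KO (7.45%). Fitting only the compared libraries gave 15 for female labelled KO (18.7% of all genes) and 9 for female minus male labelled KO (5.14%). Without both female WT libraries of number 2, the calls were 6 for labelled KO minus WT in female HDM and 3 for female labelled KO minus female WT. Upper-quartile scaling and library size only stayed within 1.5 times of every count.

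Replicate numbers are not said to mark a shared pool, and with 2 per group they only share a number. Deviations of same-numbered libraries correlated between -0.184 and 0.496 over the 12 pairs of groups. The replicate block gave 16 calls for female WT and 1 in place of 3 for female minus male labelled KO responses, and moved no other count by over 1.5 times. Crossing the numbers where the correlation was under -0.1 gave 0 calls for the male labelled KO response and 0 for the naive labelled KO sex difference. Depth limits Krt33b, Krt36, Krt1 and Krt78, whose lowest groups held 3 or fewer counts in all.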

Other observations

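Markers of rare epithelial cell types, which carry few keratin transcripts of their own in bulk, and of endothelium were listed as well. Of 3 ionocyte markers all 3 fell with HDM in female WT cultures (edgeR adjusted p under 0.05), from a summed level of 1.686 to 2.725 CPM to 0.2081 to 0.4736 CPM, and 2 fell in female labelled KO cultures. Of all genes, 22.4% and 5.77% fell in these comparisons. Of 4 tuft cell markers Gnat3 (from 0.989 and 1.60 CPM to 0.125 CPM or less) and Pou2f3 (from 0.945 and 0.989 CPM to 0.125 CPM or less) fell and Dclk1 (log2 fold change 0.91 ± 0.30) rose in female WT cultures. Their summed level, almost all of it Dclk1, was 55.54 to 75.71 CPM naive and 102 to 132.3 CPM with HDM. Of 3 tested endothelial markers 0 passed, with a sum of 1.094 to 3.197 CPM over all libraries. The ionocyte and endothelial sums, and the levels of Gnat3 and Pou2f3, rest on few counts per library.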
